A study of Mus musculus with 20 samples.

Results

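The genes described here are the transcription factors that specify and maintain skeletal muscle. They are the 4 myogenic basic helix-loop-helix factors Myf5, Myod1, Myog and Myf6, the satellite cell factor Pax7, the MEF2 genes Mef2a, Mef2c and Mef2d, and Eya1, a transcriptional coactivator. They were taken by symbol from a fixed list of 9 names, and all 9 were found among the 19938 genes measured. Each gene was read from its brightest probe set annotated to 1 symbol; Mef2d had a second such probe set, which is also described.

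The arrays held RNA from the gastrocnemius, a mixed but mostly fast calf muscle, of adult male C57BL/6 mice, with 5 arrays in each of 4 groups. NCoR1-MKO mice lack the nuclear receptor corepressor NCoR1 in muscle and were compared with their controls, called CON. PGC-1alpha-mTg mice carry a muscle-specific transgene for the coactivator PGC-1alpha and were compared with wild-type mice, called WT. The mice are given as adult only. Their exact age, the genotype of CON, and the promoters behind the deletion and the transgene are not given in the sources used here. Whether each array stands for its own mouse is not given either. The p-values therefore set a group difference only against the spread among these samples, and that spread may be technical.

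As background, the myogenic factors bind E-boxes as dimers with E proteins and switch on muscle genes. Myf5 and Myod1 commit cells to the muscle lineage, Myog drives their differentiation, and Myf6, also called MRF4, is the member that adult fibres express most. MEF2 proteins bind an A/T-rich site, act with the myogenic factors, and in adult fibres carry calcium signals: class IIa histone deacetylases hold them back, and calcineurin and CaM kinases release them. Both NCoR1 and PGC-1alpha are known to bind MEF2 proteins, as corepressor and coactivator. Eya1 is known to support the fast glycolytic fibre type.

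Values are RMA expression values on the log2 scale, and changes are log2 differences ± SE of each model from its controls, 5 arrays in each group (n = 5). A gene is said to have risen or fallen where the limma adjusted p was under 0.05. Array medians lay from 6.03 to 6.08 in the knockout cohort and from 5.84 to 5.91 in the transgenic cohort. The cohorts appear to have been normalized apart: 8 of the 9 genes had a lower mean in WT than in CON, and the median shift of all genes was -0.17, so levels are compared within a cohort only. Skeletal muscle markers were bright in every group, with Acta1 means of 13.99 in CON and 13.45 in WT. The transgene's own gene, Ppargc1a, was higher by 1.83 ± 0.07 in the transgenic mice (limma adjusted p = 9.88e-15). Under other ways of processing it stayed called, but the size of the rise ran from 0.41 to 1.86. Ncor1 itself was not analysed here, so the knockout label was not checked.

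Most of these factors were lower in the muscle of PGC-1alpha-mTg mice. There 6 of the 9 genes fell and none rose: Myf6, Myod1, Eya1, Myf5, Mef2a and Mef2c. Of all genes tested, 16.1% were called lower in that comparison and 28.0% in either direction. All 9 changes were below 0, as were 44.0% of all genes, and their median was -0.22 against 0.02 over all genes. In NCoR1-MKO none of the 9 was called by limma, where 2.63% of all genes were. At an unadjusted p under 0.05 the genes numbered 2, Mef2a and Mef2d, and an exact permutation test of each gene also gave 2, where 11.8% of all genes had an unadjusted limma p that low. The median change in the knockout was -0.06 against 0.00 over all genes.

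**Figure D1:**
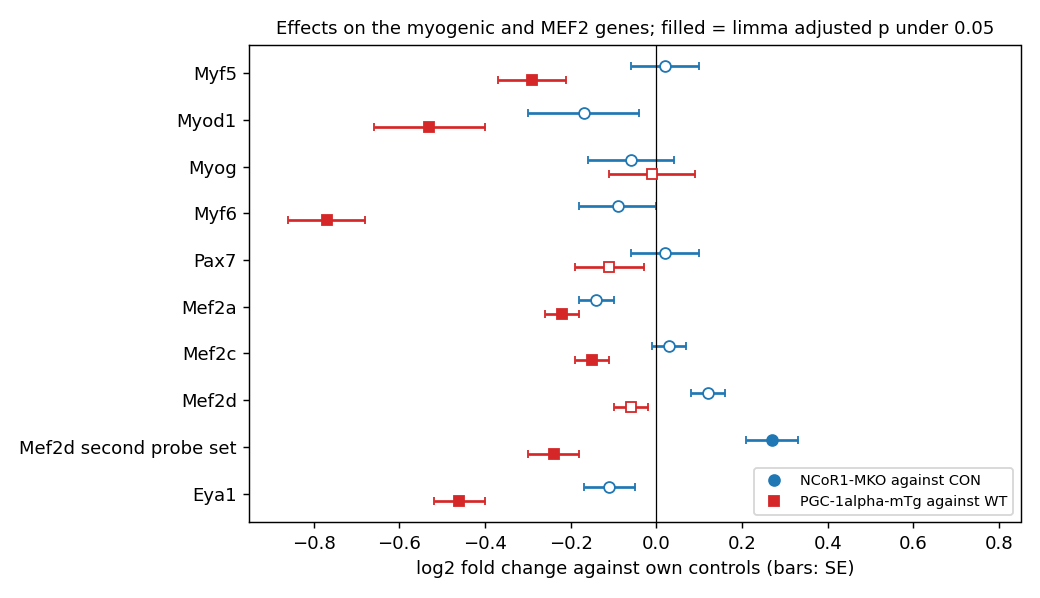
Log2 fold change of each gene against its own controls (horizontal axis, bars are the SE), in NCoR1-MKO (circles) and PGC-1alpha-mTg (squares), with filled symbols where the limma adjusted p was under 0.05. The filled squares of Myf6 at -0.77 and Myod1 at -0.53 lie farthest to the left, and the second probe set of Mef2d is filled on opposite sides of 0.

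Myf6, the factor of adult fibres, showed the largest change. Its probe set 10372230 read 11.27, 11.36, 11.38, 11.46 and 11.40 on WT arrays 1 to 5 and 10.64, 10.47, 10.47, 10.79 and 10.64 on the PGC-1alpha-mTg arrays. The lowest WT array stood above the highest transgenic one, so the groups did not overlap. The mean fell from 11.37 ± 0.07 (SD, n = 5) to 10.60 ± 0.135, a change of -0.77 ± 0.09 or 1.71-fold lower (limma adjusted p = 3.65e-07). In the other cohort the CON arrays read 11.26, 11.29, 11.41, 11.11 and 11.34 and the NCoR1-MKO arrays 11.05, 11.02, 11.18, 11.13 and 11.61. Knockout array 5 was higher than every CON array while 4 of 5 lay below the CON mean, and the change of -0.09 ± 0.09 did not pass (limma adjusted p = 0.836).

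Myod1, which commits progenitors to muscle and in adult muscle is known to be higher in fast fibres, also fell in the transgenic mice. The WT arrays read 8.09, 8.21, 8.17, 7.86 and 7.96, and the PGC-1alpha-mTg arrays 7.47, 7.85, 7.44, 7.47 and 7.39. Transgenic array 2 at 7.85 came close to the lowest WT array without reaching it, and the other 4 lay well below. The change was -0.53 ± 0.13, or 1.45-fold lower (limma adjusted p = 0.00351). The CON arrays were widely spread, at 8.78, 8.56, 9.18, 8.55 and 8.05, and the NCoR1-MKO arrays close together, at 8.44, 8.45, 8.51, 8.49 and 8.40. The SD was thus 0.411 in CON and 0.0452 in the knockout, and all 5 knockout values lay within the CON range (-0.17 ± 0.13, limma adjusted p = 0.754).

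Myf5, the neighbour of Myf6 in the genome and the earliest of the 4 factors in development, was dim here. Its WT arrays read 5.58, 5.56, 5.30, 5.54 and 5.93 and its PGC-1alpha-mTg arrays 5.29, 5.36, 5.22, 5.29 and 5.29, at or below the range of the array medians on every array but WT 5. The groups overlapped through WT array 3. The fall of 0.29 ± 0.08 passed the test (limma adjusted p = 0.0121), and the exact permutation p was 0.0159, where 0.00794 is the smallest that 5 arrays against 5 can give. A background reading was not among the values used here, so how much of such a low signal is Myf5 transcript is not known. In the knockout cohort CON arrays lay between 5.70 and 5.83 and NCoR1-MKO arrays between 5.50 and 5.91 (0.02 ± 0.08, limma adjusted p = 0.974).

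Myog, which drives the fusion and differentiation of myoblasts, was about as dim and was not called in either model. It read from 5.57 to 5.80 in WT and from 5.50 to 5.77 in PGC-1alpha-mTg, with means of 5.69 and 5.68 (-0.01 ± 0.10, limma adjusted p = 0.954). CON arrays ranged from 5.39 to 6.08 and NCoR1-MKO arrays from 5.62 to 5.99 (-0.06 ± 0.10, limma adjusted p = 0.939). CON array 5 was the lowest of its group for Myog, at 5.39, and for Myod1, at 8.05.

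**Figure D2:**
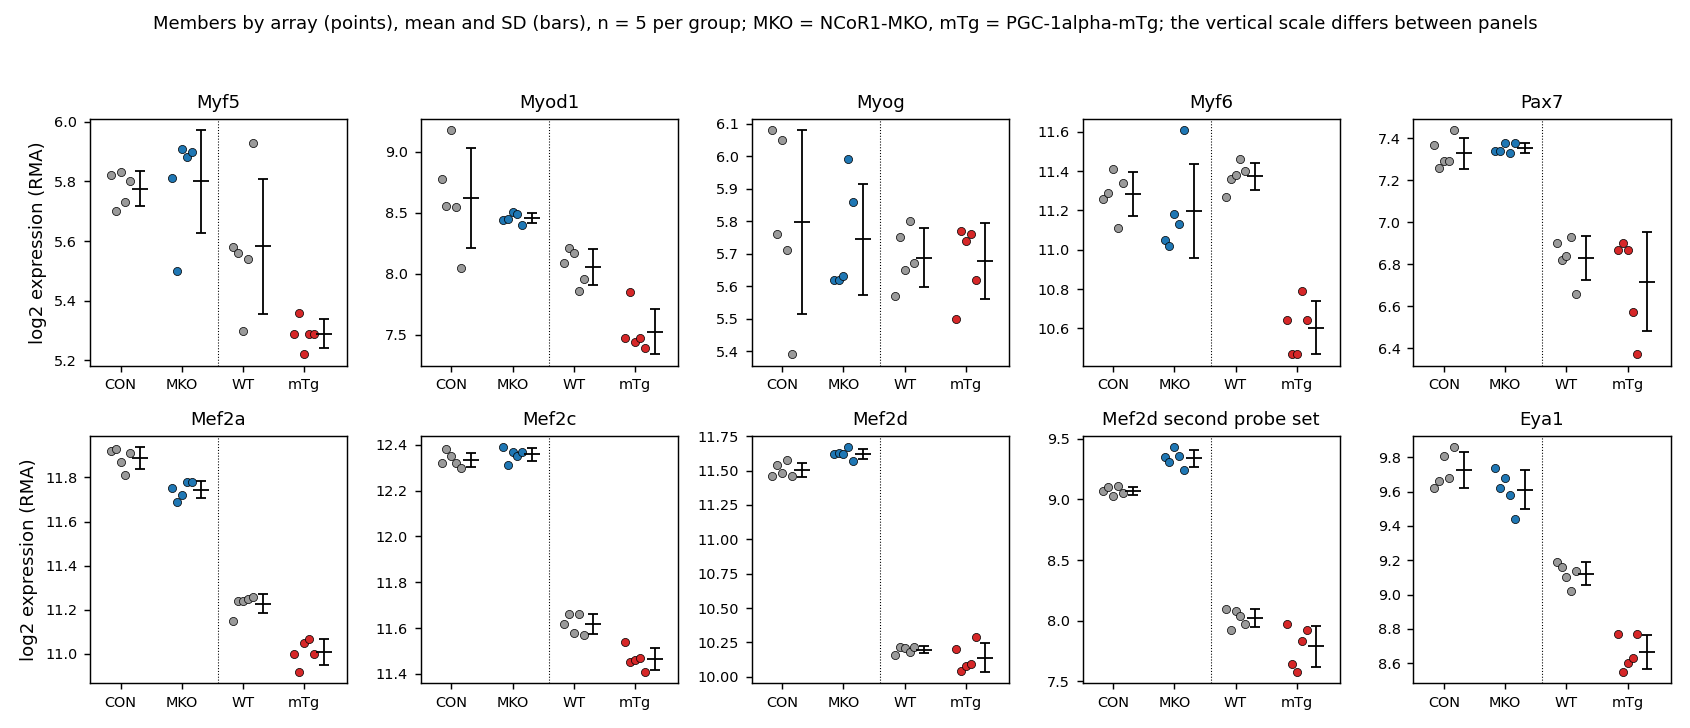
Log2 expression of each gene on each array (points), with the mean and SD beside each group of 5; the dotted line parts the cohorts, and each panel has its own vertical scale. Groups of the transgenic cohort stand apart for Myf6, Myod1, Mef2a, Mef2c and Eya1, and the CON arrays of Myod1 spread from 8.05 to 9.18.

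Pax7 marks satellite cells, the resident stem cells of muscle, and was not called in either model. It read 6.90, 6.82, 6.84, 6.93 and 6.66 in WT and 6.87, 6.90, 6.87, 6.57 and 6.37 in PGC-1alpha-mTg. Transgenic arrays 4 and 5 were the lowest of the 10, the other 3 lay within the WT range, and the change was -0.11 ± 0.08 (limma adjusted p = 0.327). CON lay between 7.26 and 7.44 and NCoR1-MKO between 7.33 and 7.38 (0.02 ± 0.08, limma adjusted p = 0.971). Of 12 other satellite cell markers measured, 5 fell in the transgenic mice and 1 rose, with a median of -0.13. Over all genes, 16.1% were called lower there and 28.0% in either direction. Chodl (-0.46 ± 0.11), Cdh15, the M-cadherin gene (-0.41 ± 0.06), and Itga7, the laminin receptor subunit (-0.34 ± 0.08), fell, while the chemokine receptor gene Cxcr4 rose (0.38 ± 0.06). Fibres express Itga7 too. The log2 of the list's summed level lay between 10.75 and 10.80 on WT arrays and between 10.55 and 10.75 on transgenic ones, and the part of satellite cell number in the Myf5 and Myod1 values was not tested. In whole muscle, fewer cells of a type and less RNA per cell cannot be told apart. In NCoR1-MKO none of the 12 was called by limma, 2 had an unadjusted p under 0.05, 1 was called higher without CON 4, and the summed level was 11.01 to 11.10 in CON and 11.07 to 11.18 in the knockout.

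Among the MEF2 genes, Mef2a and Mef2c fell slightly in the transgenic mice. Mef2a read 11.15, 11.24, 11.24, 11.25 and 11.26 in WT and 11.00, 10.92, 11.05, 11.07 and 11.00 in PGC-1alpha-mTg. The groups did not overlap, and the change was -0.22 ± 0.04, or 1.16-fold lower (limma adjusted p = 0.000138). Mef2a was also the gene closest to a call in the knockout. CON arrays read 11.92, 11.93, 11.87, 11.81 and 11.91 and NCoR1-MKO arrays 11.75, 11.69, 11.72, 11.78 and 11.78. Again the groups did not overlap, which held in the same direction for 1.96% of all genes, but the change of -0.14 ± 0.04 missed the threshold (limma adjusted p = 0.0563). It passed after quantile normalization across the 20 arrays (limma adjusted p = 0.0168), with the dimmest genes left out (0.0286), with trend and robust moderation (0.00889), with array weights (0.0208), without CON 4 (0.0342) and without PGC-1alpha-mTg 2, an array of the other cohort that enters through the shared spread (0.0467). With the replicate number as a block the adjusted p was 0.166.

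Mef2c, needed for muscle structure genes in development, read 11.62, 11.66, 11.58, 11.66 and 11.57 in WT and 11.54, 11.45, 11.46, 11.47 and 11.41 in PGC-1alpha-mTg. Every transgenic array lay below every WT array and the change was -0.15 ± 0.04, or 1.11-fold lower (limma adjusted p = 0.00262). In the knockout cohort the ranges of 12.30 to 12.38 in CON and 12.31 to 12.39 in NCoR1-MKO nearly coincided (0.03 ± 0.04, limma adjusted p = 0.905). In the transgenic cohort 5 of the 9 genes had groups that did not overlap, all lower, where 11.2% of all genes did; in the knockout cohort Mef2a alone did.

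Mef2d had a bright probe set that was not called and a dimmer one that rose in NCoR1-MKO and fell in PGC-1alpha-mTg. Mef2d encodes another of the MEF2 factors of adult fibres. Its brighter probe set 10493177, annotated to the RefSeq transcript, read 11.46, 11.54, 11.48, 11.58 and 11.46 in CON and 11.62, 11.63, 11.62, 11.67 and 11.57 in NCoR1-MKO. The knockout arrays were higher on the whole, with 4 of 5 above every CON array, but the change of 0.12 ± 0.04 did not pass (limma adjusted p = 0.230). WT arrays read from 10.16 to 10.22 and transgenic ones from 10.04 to 10.29 (-0.06 ± 0.04, limma adjusted p = 0.378).

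The dimmer Mef2d probe set 10493189, annotated to cDNA clones of the gene, was tested among all 21789 probe sets with 1 symbol. It read 9.07, 9.10, 9.03, 9.11 and 9.05 in CON and 9.35, 9.31, 9.43, 9.36 and 9.24 in NCoR1-MKO, without overlap. The rise was 0.27 ± 0.06, or 1.20-fold (limma adjusted p = 0.0224, where 1.28% of probe sets were called higher). The call was lost when CON 3 or 5 was left out, or knockout array 1, 3 or 4, at adjusted p up to 0.0735 and a change from 0.24 upwards. In the transgenic cohort it read 8.10, 7.92, 8.08, 8.04 and 7.97 in WT and 7.97, 7.64, 7.58, 7.83 and 7.92 in PGC-1alpha-mTg. The groups overlapped, with 4 of 5 transgenic arrays at or below the lowest WT array, and the fall of 0.24 ± 0.06 passed (limma adjusted p = 0.00645, where 16.9% of probe sets were called lower). With the mean of both probe sets Mef2d was called in the knockout at 0.19 (limma adjusted p = 0.0386) and in the transgenic mice at -0.15 (limma adjusted p = 0.0306).

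Promoter windows of 300 bases, from 250 before to 50 after a start site, came from RefSeq (GRCm38.p6) for 6 of the 9 genes: Myog, Myf5, Pax7, Mef2a, Mef2c with 3 windows, and Mef2d. The windows of Mef2a and Mef2c are shown as genes that fell in the transgenic mice, and that of Myog as a well-studied target of these same factors that did not pass the test. Capitals mark matches, on either strand, to the E-box CANNTG, the MEF2 consensus, the MEF3 site TCAGGTT, or the site AAGGTCA of estrogen-related receptors. No matches overlapped one another. The sequences run 5′ to 3′ on the gene's strand.
Myog, chr1:134289754-134290053, plus strand: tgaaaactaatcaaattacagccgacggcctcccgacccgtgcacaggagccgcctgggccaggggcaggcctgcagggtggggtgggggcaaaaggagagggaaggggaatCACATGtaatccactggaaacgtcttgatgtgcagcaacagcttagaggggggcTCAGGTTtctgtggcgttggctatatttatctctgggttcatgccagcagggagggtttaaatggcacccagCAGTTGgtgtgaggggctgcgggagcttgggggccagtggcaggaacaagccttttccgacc
Mef2a, chr7:67372809-67373108, minus strand: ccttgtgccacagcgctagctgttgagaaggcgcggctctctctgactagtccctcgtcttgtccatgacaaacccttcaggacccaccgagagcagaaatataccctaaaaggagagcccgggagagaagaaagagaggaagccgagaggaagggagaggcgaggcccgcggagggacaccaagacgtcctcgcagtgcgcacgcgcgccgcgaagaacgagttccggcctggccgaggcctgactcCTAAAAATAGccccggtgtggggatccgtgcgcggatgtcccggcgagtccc
Mef2c, first window, chr13:83503784-83504083, plus strand: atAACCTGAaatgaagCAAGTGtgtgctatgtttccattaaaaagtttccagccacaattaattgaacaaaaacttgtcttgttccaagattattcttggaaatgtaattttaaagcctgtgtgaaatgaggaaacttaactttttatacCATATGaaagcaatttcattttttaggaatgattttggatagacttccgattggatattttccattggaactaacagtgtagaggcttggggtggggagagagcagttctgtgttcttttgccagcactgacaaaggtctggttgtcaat

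The Mef2a window holds a MEF2 consensus match, CTAAAAATAG, that begins 2 bases before the start site, and such a match occurs in 3.19% of 32817 promoter windows. The Myog window holds E-boxes that begin 138 and 12 bases before the start and a MEF3 match at 84. Stretches that differ from the MEF2 consensus at any base were not marked, among them ctatatttat in the Myog window. A window without a mark may therefore still hold a MEF2 site. An E-box occurs in 72.3% of windows and a MEF3 match in 4.07%. The Mef2c window has E-boxes at 234 and 100 bases before the start and a MEF3 match on the other strand at 248. The third Mef2c window holds an E-box and an AAGGTCA match on the other strand, 72 bases before its start, and 4.72% of windows hold that site. In the second Mef2c window and in those of Myf5, Pax7 and Mef2d none of these letters were found. A match is a description of the letters, and the arrays do not say which start site was used.

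Eya1, the coactivator, fell in the transgenic mice without overlap. Its WT arrays read 9.19, 9.16, 9.10, 9.02 and 9.14 and its PGC-1alpha-mTg arrays 8.77, 8.55, 8.60, 8.63 and 8.77. The change was -0.46 ± 0.06, or 1.38-fold lower (limma adjusted p = 2.8e-06). CON arrays read 9.62, 9.66, 9.81, 9.68 and 9.86 and NCoR1-MKO arrays 9.74, 9.62, 9.68, 9.58 and 9.44; they overlapped, and the change of -0.11 ± 0.06 did not pass (limma adjusted p = 0.515).

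Of 8 Eya, Dach and related genes measured beside Eya1, 2 fell and 1 rose in PGC-1alpha-mTg, where the median was -0.04: Eya4 (-0.54 ± 0.06) and Six2 (-0.38 ± 0.09) fell and Dach1 rose (0.26 ± 0.07). With so few genes these counts are near the 16.1% of all genes called lower and 28.0% called in either direction. The rises numbered 2 without CON 2, NCoR1-MKO 2 or NCoR1-MKO 4 and with the replicate block. In NCoR1-MKO 2 of the 8 fell and none rose, where 2.63% of all genes were called in either direction. Over the alternatives the falls numbered 2 or 3, and 1 gene rose with the 10 arrays alone. Eya4 fell by 0.28 ± 0.06 (limma adjusted p = 0.0115), and its knockout arrays, at 10.13, 10.03, 10.04, 10.10 and 9.97, were all below the CON arrays, at 10.33, 10.27, 10.53, 10.22 and 10.31. Dach2, a corepressor known as a repressor of Myog, fell further, by 0.67 ± 0.08 (limma adjusted p = 1.96e-05). Its CON arrays read 5.11, 5.48, 5.10, 5.13 and 5.18 and its knockout arrays 4.48, 4.75, 4.58, 4.25 and 4.57, while Myog, as described above, was not called. All these Dach2 values lie below the array medians and the gene is among the dimmest that the filter leaves out, so the same limit of low signal holds as for Myf5. In the transgenic mice Dach2 stood at 0.20 ± 0.08 (limma adjusted p = 0.0651).

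**Figure D3:**
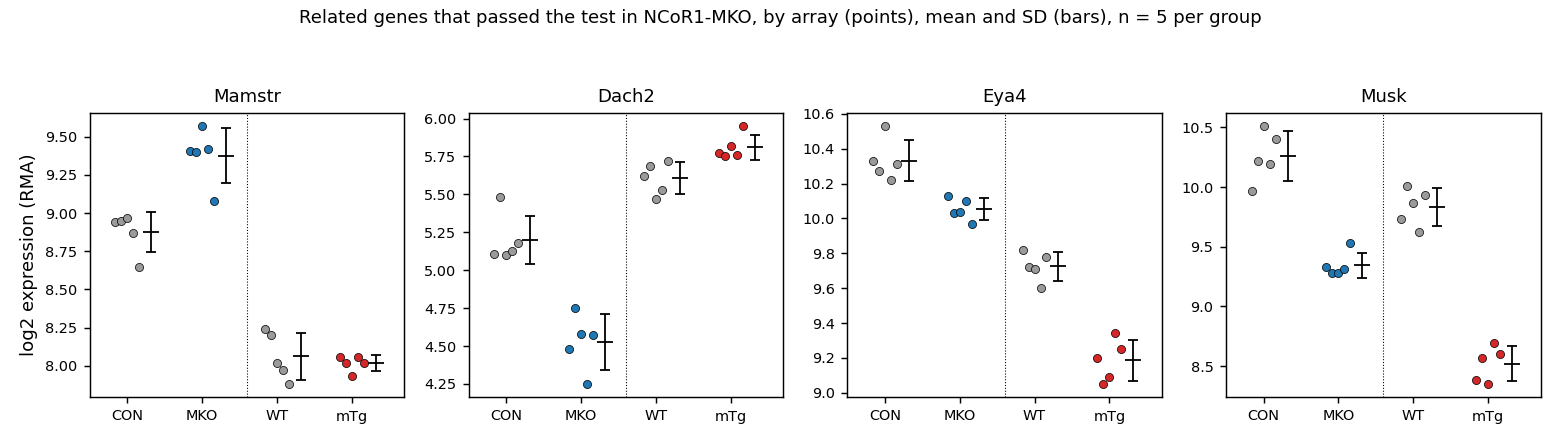
Log2 expression on each array (points), with mean and SD beside each group of 5, of 4 related genes that passed the test in NCoR1-MKO; each panel has its own vertical scale. Mamstr is higher and Dach2 lower in the knockout without overlap, and Eya4 and Musk are lower in both models.

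Genes of fast fibres made up a further list. Of 11 measured, 5 fell in the transgenic mice and none rose, with a median of -0.08 and changes between -0.28 and -0.03. In that comparison 16.1% of all genes were called lower, and in the knockout 2.63% were called in either direction. The alpha-actinin gene of fast fibres, Actn3, fell most (-0.28 ± 0.04), followed by the fast troponin genes Tnni2 (-0.16 ± 0.03) and Tnnc2 (-0.12 ± 0.03). The fast myosin heavy chain gene Myh1, which is not on this list, rose (0.32 ± 0.05, limma adjusted p = 7.99e-05). Ttn (-0.16 ± 0.03) and Neb (-0.13 ± 0.03), from the list of skeletal muscle markers, fell by amounts like those of Tnni2 and Tnnc2. Falls of that size were thus seen outside the fast-fibre list too. Slow-fibre genes were not compared as a list. In the knockout 1 of 11 was called, the fast light chain gene Mylpf, which rose (0.14 ± 0.03, limma adjusted p = 0.0300) and lost its call with the replicate block, with the 10 arrays alone, under quantile normalization and median centring (limma adjusted p up to 0.126), and without CON 1, 2 or 5 or knockout array 1, 3, 4 or 5 (up to 0.0921).

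Of 23 genes that regulate MEF2 proteins, 12 fell and 1 rose in PGC-1alpha-mTg, at a median of -0.16. Over all genes, 16.1% were called lower there. The CaM kinase II genes, which release MEF2 from deacetylases, were among the regulators that fell. Camk2d stood at -0.63 ± 0.05, Camk2b at -0.48 ± 0.05 and Camk2a at -0.45 ± 0.04. So was Hdac9, a class IIa histone deacetylase that represses MEF2 (-0.41 ± 0.08), so that genes known to act in opposite ways on MEF2 were both lower. The 1 that rose, Hdac7 (0.16 ± 0.06), was named after its values were seen and missed the threshold without any 1 of WT 1, 2 or 5 or PGC-1alpha-mTg 3 or 4 (limma adjusted p up to 0.0990), while 2 rose without PGC-1alpha-mTg 2. The count of rises in PGC-1alpha-mTg also moved, between 0 and 2, under quantile normalization and with the replicate block. In NCoR1-MKO 1 of the 23 was called, where 2.63% of all genes were. Mamstr, which encodes the MEF2 coactivator MASTR, rose by 0.50 ± 0.08, or 1.41-fold (limma adjusted p = 0.000669). Its knockout arrays read 9.41, 9.40, 9.57, 9.42 and 9.08 and its CON arrays 8.94, 8.95, 8.97, 8.87 and 8.65, so knockout array 5 was the lowest of its group and still above every CON array. In the transgenic mice Mamstr stood at -0.04 ± 0.08 (limma adjusted p = 0.742).

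Of 18 dimer partners and inhibitors of the myogenic factors measured, 3 fell and 1 rose in the transgenic mice, with a median of 0.02, which is near the 16.1% lower and 28.0% in either direction of all genes. Zeb1, a repressor that binds E-box-like sites, fell by 0.42 ± 0.04, the repressor gene Bhlhe40 by 0.37 ± 0.10 and the E protein gene Tcf12, a dimer partner, by 0.20 ± 0.05. Hes1, an effector of Notch signalling, rose (0.27 ± 0.09, limma adjusted p = 0.0331). It missed the threshold without any 1 of WT 3 or 4 or PGC-1alpha-mTg 1, 2 or 3 (limma adjusted p up to 0.106). With array weights it missed it too (limma adjusted p = 0.0941). The Id genes, which block E proteins, were not called. In NCoR1-MKO none of the 18 was called by limma, and 1 had an unadjusted p under 0.05.

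Synaptic and denervation genes, many of which are controlled by Myog and Myod1 in denervated muscle, fell and rose in PGC-1alpha-mTg. Of 13 measured, 5 fell and 2 rose, where 16.1% of all genes were called lower and 28.0% in either direction. The 2 that rose were Gadd45a (0.47 ± 0.11) and another acetylcholine receptor gene, Chrnd (0.21 ± 0.06), both named after their values were seen. The rises numbered 1 without WT 3. Musk, the receptor kinase of the neuromuscular junction, fell by 1.31 ± 0.09, the ubiquitin ligase gene Trim63 by 0.64 ± 0.07, the acetylcholine receptor gene Chrnb1 by 0.61 ± 0.07 and the adhesion gene Ncam1 by 0.49 ± 0.06. In the knockout, where 2.63% of all genes were called, Musk was the single call of the 13, at -0.91 ± 0.09. Of 16 genes known as MEF2 targets, 3 fell and 3 rose in the transgenic mice, at a median of -0.08. The falls are near the 16.1% of all genes called lower. The slow light chain gene Myl2 (-0.81 ± 0.18) and the orphan receptor gene Nr4a1 (-0.44 ± 0.09) fell, and Hrc, which binds calcium in the sarcoplasmic reticulum, rose (0.39 ± 0.03). Ppargc1a is itself on that list, as the gene of the transgene. In the knockout Myl2 fell by 0.91 ± 0.18 and Hrc rose by 0.14 ± 0.03, a call lost with the replicate block, with the 10 arrays alone and with median centring (limma adjusted p up to 0.126), and without CON 1, 4 or 5 or knockout array 1, 3 or 4 (up to 0.0596). Without CON 5 the falls numbered 2.

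**Figure D4:**
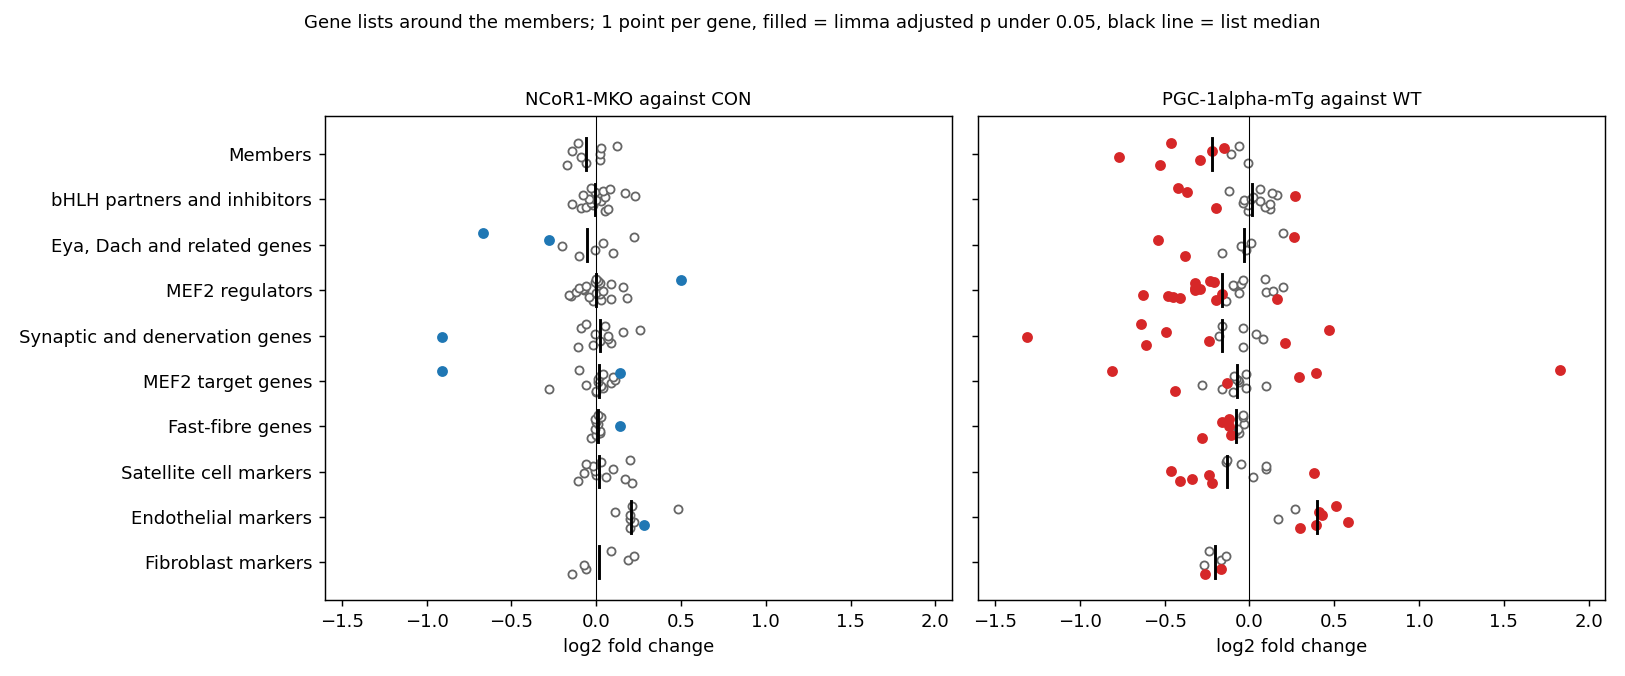
Log2 fold change of every measured gene of each list in NCoR1-MKO (left) and PGC-1alpha-mTg (right); filled points have a limma adjusted p under 0.05 and black lines are list medians. The median of the 9 factors is -0.06 on the left and -0.22 on the right, and the endothelial markers lie above 0 on both sides.

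Among markers of other cells, the clearest shift with genotype was in the endothelial list. In PGC-1alpha-mTg 28.0% of all genes were called in either direction and 16.1% lower. Endothelial markers were higher in PGC-1alpha-mTg, with 6 of 8 risen and a log2 summed level of 11.97 to 12.12 against 11.55 to 11.79 in WT, and 1 of 8 rose in NCoR1-MKO (12.07 to 12.41 against 11.81 to 12.06 in CON). That call, Cdh5 (0.28 ± 0.06, limma adjusted p = 0.0176), was lost without CON 3 or NCoR1-MKO 1 (up to 0.0658) and with the replicate block or the 10 arrays alone (up to 0.073), and the count was 2 without NCoR1-MKO 4 or PGC-1alpha-mTg 5. Under the alternatives other than leaving out 1 array, the count ran from 0 to 3. All 8 markers were above 0 in the knockout. Of them 6 had an unadjusted limma p under 0.05, where 11.8% of all genes did, and 2.63% of all genes were called. Of 6 fibroblast markers 2 fell in the transgenic mice (12.72 to 12.83 against 12.88 to 13.10), Dcn and Pdgfra. Pdgfra missed the threshold without any 1 of WT 1, 2, 3 or 4 or PGC-1alpha-mTg 2 or 3 (limma adjusted p up to 0.138). It also missed it under quantile normalization, with the 10 arrays alone and with the replicate block (limma adjusted p up to 0.081). Of smooth muscle, macrophage and adipocyte markers 1 of 5, 1 of 7 and 1 of 5 rose in the transgenic mice and none fell. None of these shares exceeds the 28.0% of all genes called in either direction. The macrophage call, C1qa, was lost without WT 5 (limma adjusted p = 0.0542), and 2 smooth muscle markers rose without PGC-1alpha-mTg 3 or 4. There 0 of 2 Schwann cell markers was called by limma, with 1 at an unadjusted p under 0.05 and 1 called lower without PGC-1alpha-mTg 2. In the knockout none of these 5 lists had a call by limma, and 1 gene had an unadjusted p under 0.05. Skeletal muscle markers had 1 risen, Myh1, and 4 fallen of 10 in the transgenic mice, at a median of -0.10. The falls of Actn3 and Mylpf are counted among the fast-fibre genes too. The part of these shifts in the values of the 9 factors was not tested.

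The effects of the models were then set against each other in the same fit. For Myf6 the transgenic effect was lower than the knockout effect by 0.68 ± 0.12 (limma adjusted p = 0.000393), for Eya1 by 0.35 ± 0.09 (limma adjusted p = 0.00639) and for Mef2c by 0.18 ± 0.05 (limma adjusted p = 0.0201; 0.0692 with the replicate block). These 3 of 9 stand against 8.50% of all genes called lower in this contrast. The second Mef2d probe set differed by 0.50 ± 0.09 in the same sense (limma adjusted p = 0.000346), where 8.97% of probe sets were called lower. For Myod1, Myf5 and Mef2a, which fell in the transgenic mice, the difference itself was not called: it was -0.37 ± 0.19 for Myod1 (limma adjusted p = 0.222; 0.0272 without CON 3), -0.31 ± 0.12 for Myf5 (limma adjusted p = 0.0857; 0.0162 without NCoR1-MKO 2 and 0.0227 without WT 3) and -0.08 ± 0.06 for Mef2a (limma adjusted p = 0.407). For the brighter Mef2d probe set it was -0.18 ± 0.06 (limma adjusted p = 0.0670) and passed under 7 alternatives: the mean of probe sets (0.0016), array weights (0.0118), trend and robust moderation (0.0279), the filter on dim genes (0.0394), quantile normalization (0.0499), without PGC-1alpha-mTg 5 (0.0109) and without CON 4 (0.0497). Among the related genes the difference was called for Dach2 (0.88 ± 0.11, limma adjusted p = 7.86e-06) and Mamstr (-0.54 ± 0.11, limma adjusted p = 0.00169).

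For each of the 6 genes that fell, the genes with the most similar profile were taken by Pearson correlation over the 20 arrays, with each cohort centred on its mean; these values describe the likeness and carry no test, since the genes share arrays and the genotype effect. Myf6 was closest to Cmbl (r = 0.956), Usp9x (r = 0.949) and Exosc1 (r = 0.945), which fell by 0.60, 0.42 and 0.32 in PGC-1alpha-mTg. Eya1 was closest to Cnksr1 (r = 0.955), Gid4 and Nos1 (both r = 0.951); Nos1 encodes the nitric oxide synthase of the sarcolemma and fell by 0.80 ± 0.08. Mef2a was closest to Eps15 (r = 0.936), Mss51 (r = 0.930) and Tlcd4 (r = 0.922). Eps15 changed by -0.37 ± 0.05 in the knockout and -0.60 ± 0.05 in the transgenic mice, and Mss51 by -2.27 ± 0.15 and -3.36 ± 0.15, so these neighbours of Mef2a were lower in both models. Mef2c was closest to Tmem123 (r = 0.909), Myod1 to Rpa2 (r = 0.838) and Myf5 to Rad52 (r = 0.785).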

How the data were processed

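Total RNA of gastrocnemius, 250 ng per sample, was hybridised to 20 Affymetrix Gene 1.0 ST arrays. The deposited values are log2 expression values, and the submitters' processing notes name RMA and Partek; their versions, the build and background readings are not given in the sources used here. All 9 members and the gene lists were chosen with earlier results of these data known.

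Probe sets were named through the platform annotation: of 35556, 21789 had 1 symbol, 1621 several and 12146 none, and 21698 matched by Entrez number with 0 symbols changed. The brightest single-symbol probe set stood for each of 19938 genes. Mean quantile distances were at most 0.063 within a cohort and 0.1691 to 0.2285 between cohorts. limma (version 3.58.1, R 4.3.3) fitted the 4 groups over all 20 arrays, with Benjamini-Hochberg adjustment over all genes and calls at adjusted p under 0.05; the number of arrays limits the precision. The fit was tested on simulated data. No pair of arrays held identical values. Same-numbered arrays were not taken as pairs: their deviations correlated between -0.132 and 0.04 in the knockout cohort and between -0.2315 and 0.1957 in the other.

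Beside the members and the targeted genes, up to 4 called genes with the largest change were eligible for naming from each list and comparison, and up to 3 genes of most similar profile for each called member. Summed marker levels are the log2 of the sum of linear values. Alternatives were quantile normalization, median centring, the mean of probe sets, all probe sets, moderation with trend and robust, array weights, a replicate block, the cohort alone, a filter on the dimmest genes (40 percent), exact permutation and leaving out each array. Ncor1 was not analysed here, and protein sequences were not used here.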

Additional observations from a re-analysis of the deposited data

Results flagged for a closer look

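In 4 of 40 groups of 5 arrays, 1 array stood far from the others, by a gap of more than 0.71 of the group's range; chance gives about 1 in 20. Myod1 read 7.85 on PGC-1alpha-mTg 2, where the nearest other array read 7.47. Myf5 read 5.50 on NCoR1-MKO 2, against 5.81 for the nearest. Myf6 read 11.61 on NCoR1-MKO 5, against 11.18 for the nearest. Mef2a read 11.15 on WT 1, against 11.24 for the nearest.

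The effects of the models differed from each other in the limma fit for 4 probe sets, each with the transgenic effect below the knockout effect: Myf6 by -0.68 (adjusted p = 0.000393), the second probe set of Mef2d by -0.50 (adjusted p = 0.000346), Eya1 by -0.35 (adjusted p = 0.00639) and Mef2c by -0.18 (adjusted p = 0.0201).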

How the results depend on the processing

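In PGC-1alpha-mTg the 6 calls by limma numbered 6 without any 1 array and 5 to 7 under the other alternatives, with 5 where leaving out the dimmest genes left 7 of the 9 measured. In NCoR1-MKO the count of 0 became 1 under quantile normalization, without the dimmest genes, with the mean of probe sets, with trend and robust moderation and with array weights, 2 by unadjusted exact permutation, and 0 to 1 without 1 array. The 3 differences between effects became 3 to 4 without 1 array. With the replicate block the counts were 0, 6 and 2. Uncalled values near 0 changed sign: Mef2c in the knockout to -0.007 under quantile normalization and Myog in the transgenic mice to 0.013 with array weights. Without 1 array, Myf5 in the knockout lay between -0.004 and 0.098, Myog between -0.157 and 0.014 in the knockout and between -0.041 and 0.033 in the transgenic mice, and its difference between effects between -0.024 and 0.146; the cause was not tested. Myf5 and Myog read near or below the array medians, which limits what their values show.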
